A study of Mus musculus with 8 samples.

Results

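Fibroblast growth factors (FGFs) are secreted proteins, and their signal is read by a small family of receptor tyrosine kinases. The 10 genes described here are 5 ligand genes, Fgf1, Fgf2, Fgf7, Fgf10 and Fgf18, and 5 receptor genes, Fgfr1 to Fgfr4 and Fgfrl1, taken by name from a table of 20681 genes measured by RNA sequencing of mouse knee joints. All 10 had a row in the table, and all 10 passed the filter on low values that left 14949 genes for testing (a normalised value no lower than 10 in 4 or more libraries). Each library is labelled knee joint, and the sample titles do not give the number of joints in it. Of the libraries, 4 are labelled control and 4 knockout for Loxl2, the gene of lysyl oxidase-like 2, an enzyme that crosslinks collagen.

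Per the series' design text, the mice of both groups are Acan-Cre;Loxl2 fl/fl, in which Cre recombinase is driven by the aggrecan gene Acan. Deletion is thereby directed to cells that express Acan, such as chondrocytes, and not to every cell of the joint. Which cells carried the deletion was not measured here. The library names give the controls as Vehicle_DMM_LOXL2wt and the others as KO_DMM_LOXL2ko. The abbreviation DMM is not spelled out there; it usually means that the medial meniscus was destabilised by surgery, a model of osteoarthritis, and it is carried by both groups, so no uninjured joint enters the comparison. The controls are described as treated with vehicle, and what the other group received in place of vehicle is not given in the sources used here, nor are age, sex or time after injury. The labels do not say that the joints of a group came from separate animals, so p-values measure the spread between these samples, which may be technical. Values listed for a group are in the order of replicates 1 to 4.

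An FGF binds its receptor together with a heparan sulfate chain, the receptors pair and phosphorylate each other, and the signal passes through the adaptor FRS2 to the Ras and MAP kinase chain, which induces its own inhibitors of the Sprouty and Spred families. In the growth plate FGFR3 restrains the division of chondrocytes, FGF18 and FGF9 are ligands of cartilage and bone, and FGFR1 and FGFR2 act in the perichondrium and in bone-forming cells. FGF2 is stored in the matrix of cartilage and is released when the tissue is damaged. FGF7 and FGF10 act on the epithelial splice form of FGFR2, and the deposited values, 1 per gene, do not tell splice forms apart.

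The libraries held 13991000 to 17411617 reads assigned to genes. Loxl2 itself went against its label, with normalised read counts of 282, 349, 1135 and 311 for the controls against 893, 1468.5, 960 and 1518 for the other group (log2 difference 1.44, limma adjusted p = 0.0294, a call lost in 8 of 17 alternatives). The deposited values do not show which exons the reads came from, so the deleted part cannot be read separately. Control replicate 3 stood among the libraries labelled knockout for this gene, and the second group is called by its label, the libraries labelled knockout, throughout. Whether the labels of the groups were exchanged was not tested, and if they were, every direction given here would turn. Over all genes tested, 3461 were called at an adjusted p under 0.05 by limma, a linear model of log2 values fitted to all genes at once, 1732 of them upward and 1729 downward from control to labelled knockout. Marker genes of several tissues of the joint also differed between the groups. The 18 skeletal muscle markers summed to 2513219 to 2723767 normalised reads in the control libraries and 1207500.5 to 1716559 in those labelled knockout. The 12 fibroblast markers summed to 40380 to 122071 and 175261 to 280694, and the 8 macrophage markers to 1429 to 3300 and 4931 to 6858. In a whole joint, fewer cells of a type and less RNA per cell cannot be told apart. In another scaling, the summed reads of fewer genes took the place of the deposited size factors. It left out the 50 highest genes and all muscle, erythroid and neutrophil markers (the marker-free scaling). The median difference of all genes then moved from 0.00 to 0.15 on the log2 scale and the calls became 2715 higher and 780 lower. Both the method of scaling and the set of genes changed, so their parts in this move cannot be told apart.

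Of the 10 FGF genes, 3 rose in the libraries labelled knockout, the receptor genes Fgfr2, Fgfr3 and Fgfr1, and 1 fell, the ligand gene Fgf1. The same 4 genes were those whose groups did not overlap. Over all genes tested 23.2% were called, 11.6% higher and 11.6% lower, and the groups did not overlap for 25.1%. The median log2 difference was 0.15 over the 10 genes and 0.00 over all genes tested.

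**Figure D1:**
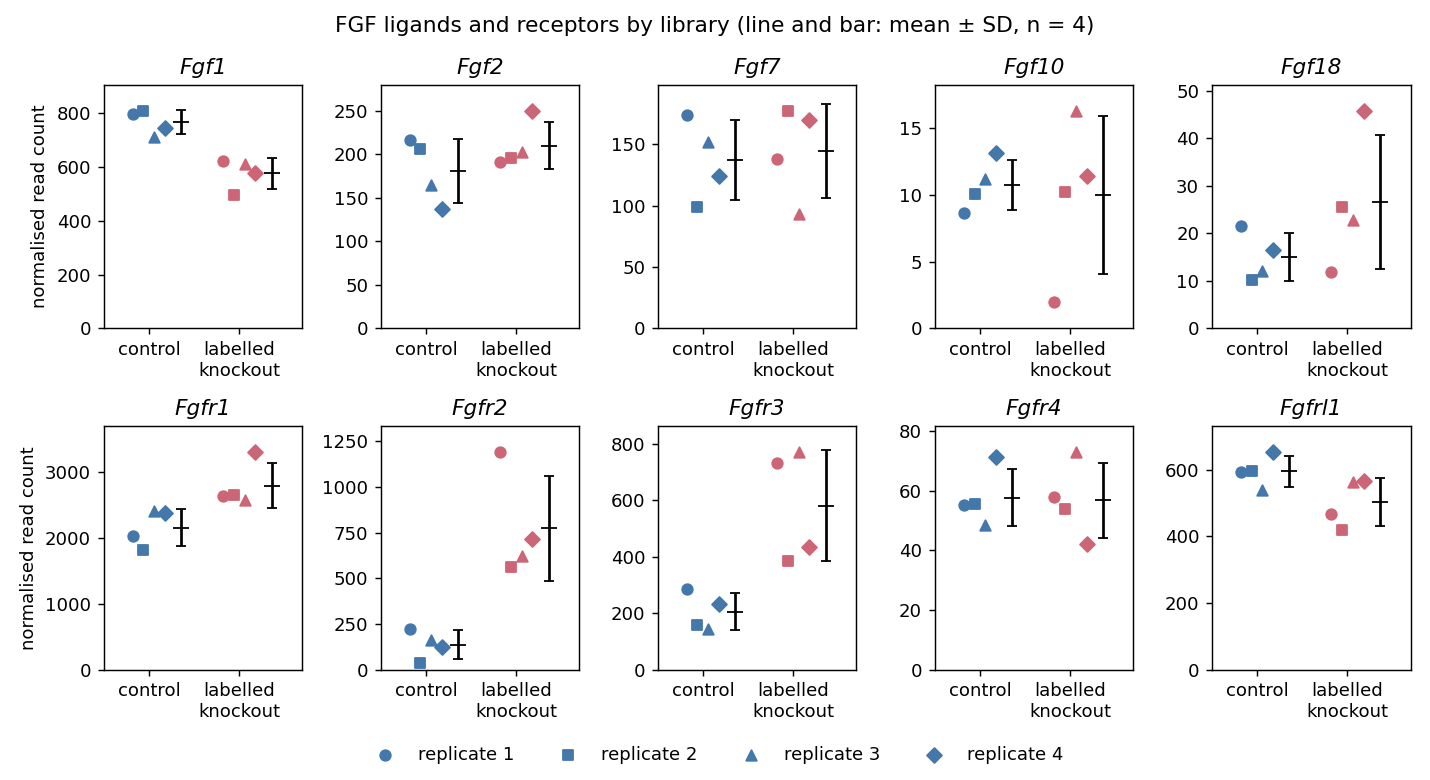
Normalised read count (vertical axes, from 0, 1 scale per gene) of the 10 genes in the 4 control libraries and the 4 libraries labelled knockout, with 1 symbol per replicate number, and the group mean ± SD beside them. Fgfr1, Fgfr2 and Fgfr3 show separate groups, with Fgf1 separate in the opposite direction, and the groups of the other 6 genes overlap.

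Among the receptors, Fgfr2 and Fgfr3 had the largest differences. The bases upstream of their start sites are shown because both receptor genes were called higher, and their windows are unlike. RefSeq has promoter entries for 8 of the 10 genes (build GRCm38.p6, the same as mm10), and each window printed runs from 250 to 51 bases before the RefSeq start, at chr7:130266859-130267058 on the minus strand for Fgfr2 and at chr5:33721474-33721673 on the plus strand for the first start of Fgfr3. Capitals mark a GC box, GGGCGG or its complement CCGCCC.
Fgfr2: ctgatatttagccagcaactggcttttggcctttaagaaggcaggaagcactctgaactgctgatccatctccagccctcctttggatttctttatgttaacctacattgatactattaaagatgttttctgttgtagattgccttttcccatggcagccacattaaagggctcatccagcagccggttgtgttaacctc
Fgfr3: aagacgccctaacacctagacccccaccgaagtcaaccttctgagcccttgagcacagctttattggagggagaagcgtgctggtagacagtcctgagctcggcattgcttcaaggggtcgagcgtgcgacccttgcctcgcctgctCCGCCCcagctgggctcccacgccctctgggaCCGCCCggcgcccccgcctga
The Fgfr2 window is 44.0% G and C with 1 CG pair and holds no GC box, while the Fgfr3 window is 65.0% G and C with 14 CG pairs and 2 GC boxes. Over 32851 RefSeq windows of the same 200 bases, the median was 51.5% G and C with 4 CG pairs, 24.6% held a GC box on either strand, 59.05% an E-box (CANNTG) and 9.14% a TATA box (TATAAA on either strand). Both windows hold 1 E-box and neither holds a TATA box. The RefSeq start of Fgfr2 lies 545 bases upstream of the nearest start in GENCODE M21, so this window is further from those transcripts than the one of Fgfr3. Of the other receptor genes with an entry, Fgfrl1 had 73.0% G and C with 3 GC boxes and Fgfr4 60.5% with 1. Among the ligands Fgf18 was the richest in G and C at 77.5%, and Fgf7 had 45.5%. These matches describe the letters in the windows and are not evidence of binding.

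Fgfr2 (chromosome 7, 130162451 to 130266808 in RefSeq, minus strand) encodes a receptor that in bone is active in osteoblast precursors. Its normalised read count was 224, 38.4, 162 and 124 in the controls and 1191, 563, 622 and 718 in the libraries labelled knockout. The lowest library labelled knockout stood well above the highest control, and control replicate 2 was the lowest of all. The mean rose from 137 ± 77.6 to 773.5 ± 285.5 (SD, n = 4 per group), 5.65 times (log2 difference 2.68, SE 0.47, limma adjusted p = 0.00674). Without control replicate 2 the log2 difference was 2.16, the smallest value under the alternatives tried, and it stayed called in each of the 17. The annotated span depends on the source, since 1 of 27 GENCODE M21 transcripts starts far upstream, at 133123350, and 3.04% of the exon bases are shared with Ctbp2 on the same strand.

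Fgfr2 also varied within the groups in the company of the summed bone markers. The library with the most Fgfr2 in each group, control replicate 1 and knockout replicate 1, was also the one with the highest sum of the 8 osteoblast markers, 7587 against 1122.5 to 2819 in the other controls and 12921 against 6305 to 7630 in the other libraries labelled knockout. Of these markers, which include Runx2, Sp7 and Ibsp, 4 rose and none fell, with a median log2 difference of 1.62, while their summed ranges overlapped between the groups. Of 7 osteoclast markers 6 rose and none fell, with a median of 2.83, and their sums overlapped too. Within both groups the order of the 4 libraries by Fgfr2 was also their order by the osteoblast sum and by the sum of the 7 osteoclast markers. The osteoclast sum was highest at 13767 in control replicate 1 and 38544 in knockout replicate 1. Single osteoblast markers did not all share the order of their sum, of which Ibsp made up 7314 of 12921 in knockout replicate 1. Runx2 followed the order of Fgfr2 in both groups. Bglap, Bglap2 and Phex were instead highest in knockout replicate 2, which had the least Fgfr2 of its group. Epithelium also expresses Fgfr2, and of 6 keratinocyte markers only Krt10 and Lor had a row, with sums of 40.0 to 46.4 normalised reads in the controls and 26.9 to 58.1 in the libraries labelled knockout. What these markers contribute to the difference in Fgfr2 was not tested.

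Fgfr3 (chromosome 5, 33721674 to 33737068, plus strand), the receptor of growth plate chondrocytes, had 285.5, 159.5, 145 and 233 normalised reads in the controls and 733, 387, 771 and 437 in the libraries labelled knockout. All libraries labelled knockout lay above the controls, and they fell into a higher pair, replicates 1 and 3, and a lower pair. The mean rose from 206 ± 65.8 to 582 ± 198, 2.83 times (log2 difference 1.48, SE 0.28, limma adjusted p = 0.00795), and the call held in each of the 17 alternatives. Of its annotated exon bases 13.9% are shared with G630022F23Rik on the opposite strand, and whether strand was used in counting is not given in the sources used here. The 11 chondrocyte markers, Acan and Col2a1 among them, had a median log2 difference of 0.70, and 10 of them were above 0. They rose in 1 gene and fell in none. Their sums overlapped between the groups, 4351 to 13374 in the controls and 10952 to 15156 in the libraries labelled knockout. Much of the sum was Comp, with a mean of 4358 out of 8580 in the controls and 7942 out of 12656 in the libraries labelled knockout. The part of these markers in the difference in Fgfr3 was not tested.

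Fgfr1 (chromosome 8, 25513654 to 25575718, plus strand) encodes the receptor found most widely in mesenchymal tissue and was the most abundant of the 10 genes. It had 2024, 1821, 2407 and 2371.5 normalised reads in the controls and 2641, 2650.5, 2573 and 3302 in the libraries labelled knockout. The groups stood apart by a narrow gap, between control replicate 3 and knockout replicate 3. The mean rose from 2156 ± 282 to 2791.5 ± 342, 1.29 times (log2 difference 0.37, SE 0.12, limma adjusted p = 0.0453). This call was the least secure of the 4. It was lost in 9 of the 17 alternatives, among them edgeR (edgeR adjusted p = 0.0533) and each fit that left out replicate 1, 2 or 4 of either group, where the limma adjusted p was 0.0557 to 0.121. The difference stayed above 0 in all of them, at 0.29 to 0.58.

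Fgfr4 and Fgfrl1 did not pass the test. Fgfr4 (chromosome 13, 55152640 to 55168759), a receptor known from regenerating muscle and liver, had 55.2, 55.5, 48.6 and 71.2 normalised reads in the controls and 57.8, 53.9, 72.9 and 42.25 in the libraries labelled knockout. The groups overlapped through their whole range, and the log2 difference was -0.03 with a 95% interval from -0.52 to 0.45 (limma adjusted p = 0.922). Its sign turned under the marker-free scaling, to 0.11. Fgfrl1 (chromosome 5, 108692382 to 108706924) encodes a receptor-like protein that binds FGFs and lacks the kinase domain. It had 593, 598, 538 and 653 reads in the controls and 467, 419, 563 and 566 in the libraries labelled knockout, of which replicates 1 and 2 lay below every control. The log2 difference was -0.25 with a 95% interval from -0.51 to 0.01 (limma adjusted p = 0.150).

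**Figure D2:**
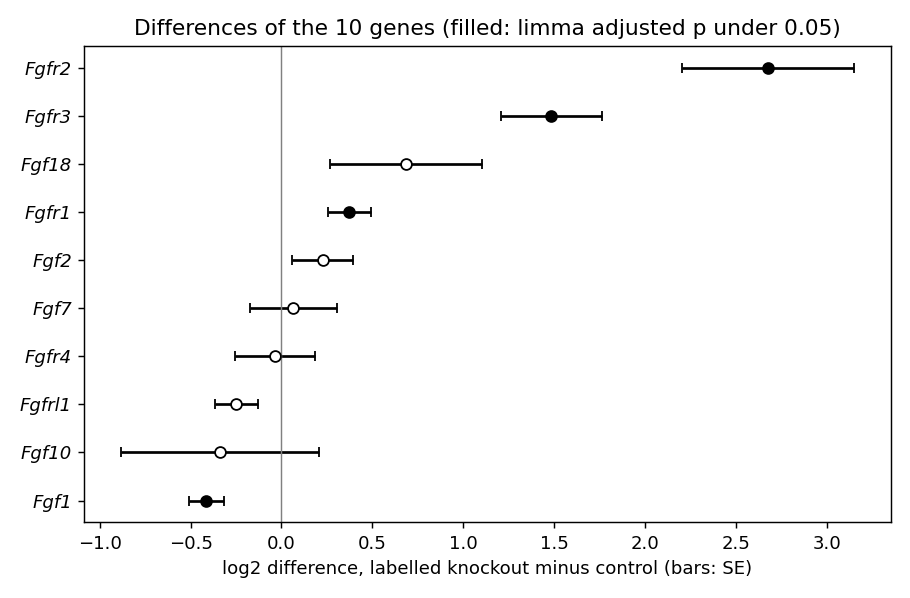
Difference on the log2 scale, labelled knockout minus control (horizontal axis, bars are standard errors of the limma fit) for the 10 genes in order of size, filled where the limma adjusted p was under 0.05. Fgfr2 at 2.68 and Fgfr3 at 1.48 stand to the right, and Fgf1 at -0.41 is the only filled point below 0.

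Of the ligand genes, 1 passed the test. Fgf1 (chromosome 18, 38838673 to 38929472, minus strand), whose product binds all the FGF receptors, was the most abundant ligand of the 5. Its normalised read count was 796, 807.5, 712 and 745 in the controls and 620, 495, 609 and 577 in the libraries labelled knockout. Every library labelled knockout lay below every control, and the spread was small, with a coefficient of variation of 5.83% in the controls. The mean fell from 765 ± 44.6 to 575.5 ± 56.5 (log2 difference -0.41, SE 0.10, limma adjusted p = 0.0155). This fall depended on the scaling: under the marker-free scaling it was -0.26 (limma adjusted p = 0.0689), where the median of all genes stood at 0.15. The skeletal muscle markers fell beside it, 9 of 18 called lower and none higher with a median log2 difference of -0.81, and their part in the fall of Fgf1 was not tested.

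Fgf2 (chromosome 3, 37348346 to 37410108), the FGF held in cartilage matrix, had 216, 206, 165 and 137 normalised reads in the controls and 191.5, 196, 202 and 250 in the libraries labelled knockout. Only knockout replicate 4 exceeded the controls, and the log2 difference was 0.23 with a 95% interval from -0.15 to 0.60 (limma adjusted p = 0.349). Of its exon bases 13.2% are shared with other genes, Nudt6 on the opposite strand among them. Fgf7 (chromosome 2, 126034658 to 126091185), a fibroblast product, had 174, 98.9, 151 and 124 reads in the controls and 138, 177, 93.5 and 170 in the libraries labelled knockout, and its groups overlapped almost entirely. Its log2 difference of 0.07 had a 95% interval from -0.47 to 0.60 (limma adjusted p = 0.868) and turned to -0.13 under quantile normalisation. Of the 12 fibroblast markers 9 rose and none fell (list median 1.62 on the log2 scale), and their part in the values of Fgf7 was not tested.

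Fgf18 and Fgf10 were scarce, with 10 to 52 and 2 to 15 reads per library before scaling. Fgf18 (chromosome 11, 33117430 to 33147400), a ligand of cartilage and bone, had normalised read counts of 21.6, 10.1, 12.15 and 16.4 in the controls and 11.97, 25.7, 22.8 and 45.8 in the libraries labelled knockout. Its 3 highest libraries were all labelled knockout, while knockout replicate 1, the library with the most Fgfr2, stood among the controls. The log2 difference was 0.69 with a 95% interval from -0.25 to 1.62 (limma adjusted p = 0.259), so both no change and a rise as large as that of Fgfr3 lie inside the interval. Fgf10 (chromosome 13, 118669791 to 118792115), a close relative of Fgf7, had 8.65, 10.1, 11.2 and 13.1 in the controls and 1.995, 10.3, 16.3 and 11.4 in the libraries labelled knockout. Both the lowest and the highest of its values were in the latter group, and the 95% interval of the log2 difference ran from -1.55 to 0.88 (limma adjusted p = 0.685). Without knockout replicate 1 its sign turned, to 0.20.

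Levels of different genes were compared per length, as normalised reads per kilobase of the gene's longest coding transcript in GENCODE M21. In the control joints the order was Fgfr1 at 428 ± 56.0, Fgfrl1 at 256 ± 20.1, Fgf1 at 192 ± 11.2, Fgf7 at 51.3 ± 12.2, Fgfr3 at 48.5 ± 15.5, Fgfr2 at 31.8 ± 18.0, Fgf2 at 30.3 ± 6.15, Fgfr4 at 17.3 ± 2.89, Fgf18 at 13.9 ± 4.70 and Fgf10 at 2.62 ± 0.461 (SD, n = 4). The top 3 were in this order in each control library, with ranges that did not overlap, while Fgf7, Fgfr3, Fgfr2 and Fgf2 overlapped with their neighbours. The place of Fgfr1 depends on the length used. Its annotated exons come to 9875 bases against 5041 for the longest coding transcript, and those of Fgfrl1 to 2782 against 2329. By exon length Fgfr1 was below Fgfrl1 in control replicates 1 and 2. In the libraries labelled knockout Fgfr2, at 179 ± 66.2, stood between Fgfrl1 at 216 ± 31.3 and Fgf1 at 145 ± 14.2, and its range overlapped with both. Fgfr3 at 137 ± 46.7 overlapped with Fgf1 and lay above Fgf7 without overlap, as did Fgfr1, at 554 ± 67.8, above Fgfrl1. The remaining order, Fgf7, Fgf2, Fgf18, Fgfr4 and Fgf10, put only the step from Fgfr4 to Fgf10 beyond the spread. This order too depends on the length used. By the length of all annotated exons, the mean of Fgfr2 in the libraries labelled knockout was below those of Fgf1 and Fgfr3.

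The receptor make-up shifted accordingly. Of the summed level per length of the 4 kinase receptors, Fgfr1 held 74.7% to 85.1% in the control libraries and 52.9% to 69.9% in those labelled knockout. Fgfr2 held 2.10% to 9.67% and 16.8% to 27.9%. For Fgfr3 the share was 6.05% to 12.5% in the controls and 10.97% to 21.2% in the libraries labelled knockout, ranges that overlapped. Fgfr4 held 2.59% to 3.94% and 1.36% to 2.55%. These shares are given as a description, without a test. With the length of all annotated exons in place of the longest coding transcript, the mean share of Fgfr2 was 4.65% and 16.2%, against 5.85% and 19.9%. For Fgfr3 it was 10.4% and 17.7%, against 9.24% and 15.4%. Which of Fgfr2 and Fgfr3 had the larger mean share in the libraries labelled knockout thus depended on the length used.

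**Figure D3:**
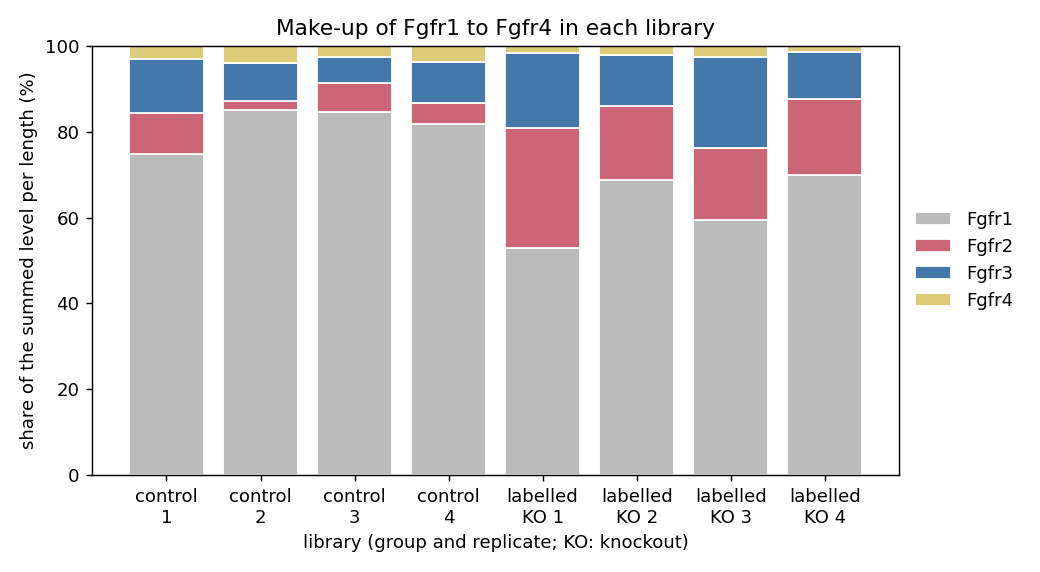
Share of the summed level per length (vertical axis, percent) held by Fgfr1, Fgfr2, Fgfr3 and Fgfr4 in each of the 4 control libraries and the 4 libraries labelled knockout (bars). Fgfr1 holds at least 74.7% in every control and at most 69.9% in every library labelled knockout, and the Fgfr2 segment is widest in knockout replicate 1 at 27.9%.

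Ratios of 2 genes within a library, computed with 1 added to each normalised value, depend little on how libraries are scaled where both genes are well read, and more for scarce genes such as Fgf10. A set of 7 was compared by an exact two-sided permutation test over the 70 assignments of libraries, for which the smallest p is 0.0286. The pairs were chosen with earlier results of these data known, so these p-values are not independent support for the differences already given. Relative to Fgfr1, Fgfr2 was higher in the libraries labelled knockout: the log2 ratio of Fgfr1 to Fgfr2 was 3.17, 5.53, 3.89 and 4.25 in the controls and 1.15, 2.23, 2.05 and 2.20 in the other group, a difference of -2.30 (exact p = 0.0286, 0.0667 adjusted over the 7 ratios). The ratio of Fgfr1 to Fgfr3 differed by -1.11, with a mean of 3.43 ± 0.504 in the controls and 2.32 ± 0.612 in the libraries labelled knockout, and the groups overlapped (exact p = 0.0571, adjusted 0.1). The truncated receptor gene Fgfrl1 was lower relative to Fgfr1, with a log2 ratio of Fgfr1 to Fgfrl1 of 1.61 to 2.16 in the controls and 2.19 to 2.66 in the libraries labelled knockout, a difference of 0.62 (exact p = 0.0286, adjusted 0.0667). No difference beyond the spread was seen for Fgfr1 to Fgfr4, at 0.41 (exact p = 0.257, adjusted 0.3).

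Among the ligands the log2 ratio of Fgf1 to Fgf2 was 1.88, 1.97, 2.10 and 2.43 in the controls and 1.69, 1.33, 1.59 and 1.21 in the other group, so that Fgf1 lost ground to Fgf2 in every library labelled knockout. The difference was -0.64 (exact p = 0.0286, adjusted 0.0667). The ratios of Fgf18 to Fgf7 (difference 0.62, exact p = 0.2, adjusted 0.28) and of Fgf7 to Fgf10 (0.40, exact p = 0.629, adjusted 0.629) had groups that overlapped. None passed 0.05 after adjustment. With 3 of the 7 ratios at the smallest p the design allows, the adjusted value cannot fall below 0.0667, so this does not show that the ratios were alike.

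The rest of the pathway was read from 5 lists of 88 genes in all, of which 68 were tested, 15 were called higher and 11 lower, beside 11.6% each way over all genes tested. Of 17 other FGF genes 14 had a row and 6 passed the filter, none was called higher and 2 fell, 33.3% of those tested. Fgf9 (chromosome 14), a ligand that shares the receptors of FGF18 in cartilage and bone, had 74.6, 64.6, 74.8 and 73.4 normalised reads in the controls and 29.9, 49.6, 43.5 and 29.9 in the libraries labelled knockout, a log2 difference of -0.92 (limma adjusted p = 0.0167). Fgf6 (chromosome 6), an FGF of skeletal muscle, had 122, 117, 209 and 124 in the controls and 98.7, 63.3, 83.7 and 44.0 in the libraries labelled knockout, a log2 difference of -0.99 (limma adjusted p = 0.0301). In both, all libraries labelled knockout lay below the controls. The call of Fgf6 was lost under the marker-free scaling (limma adjusted p = 0.0561), and when any 1 of control replicates 2, 3 and 4 and knockout replicates 2 and 4 was left out (0.0526 to 0.0745). The skeletal muscle markers given above moved with these falls, and their part was not tested. Fgf13, whose product stays inside the cell and binds sodium channels, was the most abundant of this list at 486.5 ± 78.6 and 372 ± 51.7 and missed the threshold, at -0.38 on the log2 scale (limma adjusted p = 0.0730). The 8 FGF genes that had a row and did not pass the filter were Fgf4, Fgf5, Fgf12, Fgf17, Fgf20, Fgf21, Fgf22 and Fgf23, and the highest value among them was 22.2, of Fgf20 in control replicate 2.

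Co-receptors and binding proteins had 6 of 15 tested genes higher and 1 lower, 46.7% called against 23.2% of all genes, with a median log2 difference of 0.87 against 0.00 over all genes. Flrt1, a leucine-rich transmembrane protein whose family binds FGF receptors, had 126.5, 44.4, 24.3 and 40.5 reads in the controls and 956, 854, 662 and 473 in the libraries labelled knockout, a log2 difference of 3.84 (limma adjusted p = 0.00397). Its annotated span overlaps that of Macrod1 on the opposite strand, and whether their exons share bases was not examined. Its relative Flrt2 rose by 1.46 (limma adjusted p = 0.00588). Of the syndecans, proteoglycans whose heparan sulfate chains hold FGFs at the cell surface, Sdc1 rose by 1.83 (limma adjusted p = 0.00605) and Sdc3 by 0.87 (0.0159). The other called genes of the list were Sdc4 and Ncam1, both higher, by 0.40 and 0.90. The glypican Gpc1, the most abundant gene of the list in the controls, fell by 0.43 on the log2 scale, from 5921 ± 243.5 to 4418 ± 456.5 (limma adjusted p = 0.0124). That fall was not called under quantile normalisation, at -0.14 (limma adjusted p = 0.290), or under the marker-free scaling, at -0.28 (0.0520). The fibroblast and macrophage marker sums given above separated the groups in the same way as these rises, and their part was not tested.

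Among 15 enzymes that build or trim heparan sulfate, 3 rose and 2 fell, with a list median of 0.26. That is 20% higher and 13.3% lower, beside 11.6% each way over all genes tested. Ext1, a subunit of the chain polymerase, rose by 0.93 (limma adjusted p = 0.00882), from 289 ± 64.0 to 550 ± 102 normalised reads. Hpse, the heparanase that cuts the chains, rose by 1.13 at low counts, 27.2 ± 5.79 to 62.3 ± 21.3 (limma adjusted p = 0.0179), a call at the edge under quantile normalisation (0.0536) and without control replicate 2 (0.0501), where it was lost. Of the sulfotransferases that start chain modification, Ndst2 rose by 0.41 (limma adjusted p = 0.0216). That call was lost under quantile normalisation (0.0541) and with replicate number as a block (0.0619). It was also lost when control replicate 4 or knockout replicate 1 or 4 was left out (0.0542 to 0.0566). Ndst1 fell by 0.25 on the log2 scale (limma adjusted p = 0.0415), and this call was lost in 13 of 17 alternatives, among them leaving out any 1 of the 8 libraries (limma adjusted p = 0.0515 to 0.106) and the marker-free scaling, where the difference was -0.10 (0.371). Extl3, which begins the chain, fell by 0.45 on the log2 scale (limma adjusted p = 0.0168), a call lost under quantile normalisation (0.0525), under the marker-free scaling (0.0665), and without control replicate 2 (0.0502) or knockout replicate 4 (0.0510).

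Below the receptors, 4 of 19 signal carriers rose and 6 fell, all by less than 0.5 on the log2 scale. That is 52.6% called, 21.1% higher and 31.6% lower, beside 23.2% called over all genes tested. The MAP kinase kinase Map2k2 fell from 3167 ± 193 to 2266 ± 175 (log2 difference -0.48, limma adjusted p = 0.00674), Hras by 0.47 on the log2 scale (0.00766) and the phosphatase Ptpn11 by 0.45 (0.0150). The calls downward also included Map2k1 at -0.32, and the calls upward included the adaptor Shc1 at 0.44, Plcg1 at 0.35 and Mapk3 at 0.43. Cbl, a ubiquitin ligase that takes activated receptors out of service, rose by 0.46 (limma adjusted p = 0.0155). The fall of Ptpn11 was not called under quantile normalisation (limma adjusted p = 0.0871) or the marker-free scaling (0.0598), and under the latter the list had 7 genes higher and 3 lower.

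Feedback inhibitors and transcriptional targets, the genes that FGF signalling switches on, had 2 of 13 tested genes higher and none lower, 15.4% called against 23.2% of all genes. Spred1, an inhibitor of the Ras and MAP kinase chain, had 247, 179, 378.5 and 326 normalised reads in the controls and 638, 527, 416.5 and 618 in the libraries labelled knockout, a log2 difference of 0.99 (limma adjusted p = 0.0153). Etv1, an ETS family transcription factor, rose by 0.78 from 67.3 ± 13.2 to 116 ± 20.8 (limma adjusted p = 0.0236), a call lost under quantile normalisation (0.0868) and when any 1 of control replicates 1 and 2 and knockout replicates 1 and 4 was left out (0.0523 to 0.0711). The targets most often read as a gauge of FGF signalling overlapped between the groups: Dusp6 had 205 to 276 normalised reads in the controls and 225 to 437 in the libraries labelled knockout (log2 difference 0.35, limma adjusted p = 0.209), Spry4 differed by -0.08 (0.812), Etv4 by 0.24 (0.529) and Etv5 by -0.21 (0.591). These 4 were picked out after their values had been seen.

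**Figure D4:**
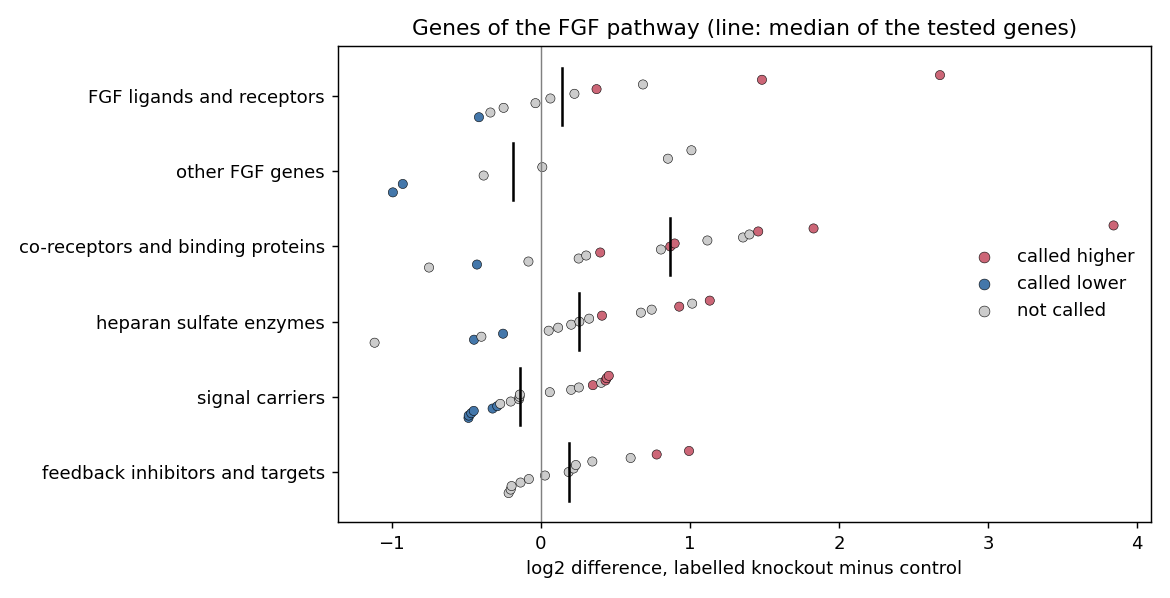
Difference on the log2 scale, labelled knockout minus control (horizontal axis) for every tested gene of the FGF ligands and receptors and of the 5 pathway lists (rows), coloured by the limma call, with a line at the list median. The co-receptors and binding proteins reach furthest to the right, with Flrt1 at 3.84, and the signal carriers stay within 0.5 of 0.

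Across the 8 libraries, the gene with a mean of at least 50 whose log2 values followed Fgfr2 most closely was Mmp13 (Pearson r = 0.993), the collagenase of hypertrophic chondrocytes and osteoblasts, and the next was Nckap1l (0.991). Fgfr3 was followed by Snx8 (0.964) and Ncf4 (0.963), Fgfr1 by Tmem50a (0.991) and Ankfy1 (0.988), and Fgf1 by 1110008L16Rik (0.988) and Cisd3 (0.987). For the members that were not called, the closest genes were Rrnad1 and the cartilage matrix gene Chad for Fgf2, Ufl1 and Aco1 for Fgf7, Cabp1 and Mb for Fgf10, Atf6b and Tulp3 for Fgf18, Pih1d1 and Clmn for Fgfr4, and Dctn6 and Togaram2 for Fgfrl1, with r of 0.936 to 0.990. These are the 2 highest of 11646 genes searched in each case, over 8 libraries that share the contrast between the groups, and are given as a description.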

How the data were processed

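The 8 poly-A RNA libraries, labelled knee joint and 4 per group, share 1 deposited table. Its values are a normalised signal, the read count of each gene divided by 1 size factor per library, per the labels and the values: 100% of each library's values came out as whole reads (tolerance 0.01) when divided by its smallest step. Per the submitters' processing notes and the series' design text, the authors aligned to mm10 with HISAT2, counted with featureCounts and normalised with DESeq2. Versions, annotation and strand setting are not given in the sources used here. Columns were matched to samples by the library names in the labels (0 left unmapped).

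Samples were grouped by title. Genes reaching 10 in 4 or more libraries were tested with limma 3.58.1 (intensity trend) on log2(value + 1), so that fold changes of low genes are understated, with Benjamini-Hochberg adjustment over all 14949 genes; called means an adjusted p below 0.05, and rose or fell is used only then. The fit was also run on simulated data with the same spread beyond counting noise for every gene. The spread differs between genes here, so that run does not show how the fit does on these libraries. The 12 within-group pairs differed beyond counting noise (chi-square per degree of freedom 25.79 to 66.1). edgeR 4.0.16 and DESeq2 1.42.0 were run on whole reads recovered from the deposited values, and called 3324 and 4125 genes. Other alternatives were pseudocounts of 0.1 and 10, no filter, TMM, quantile and marker-free scaling, a replicate block and leaving out each library. Coordinates and lengths are from GENCODE M21 except where RefSeq is named.

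The members, lists and tests were chosen with earlier results of these data known. Genes named were the 10 members, Loxl2, up to 5 called genes of smallest p and the most abundant gene of each pathway list, and the 2 genes most correlated with each member; others were chosen after their values were seen. Some signal carriers are counted with their list and not reported here by name. A list of cell type markers (skeletal muscle, satellite cell, fibroblast, synovial lining, chondrocyte, osteoblast, osteoclast, macrophage, neutrophil, erythroid, endothelial, adipocyte, Schwann cell, keratinocyte) was used to describe the libraries.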

Additional observations from a re-analysis of the deposited data

Results flagged for a closer look

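In 84 groups of 4 libraries examined, 6 had 1 library far from the other 3 by Dixon's criterion, which chance alone gives in about 1 group in 20. Fgfr1 was highest in knockout replicate 4, at 3302 normalised reads. Fgfr2 held an unusually large share of the receptor level per length in knockout replicate 1, at 27.9%. Loxl2 in control replicate 3 reached 1135 normalised reads, and the same library was the highest control for Fgf6, at 209. Fgf9 was lowest among the controls in replicate 2, at 64.6. For Sdc3 the library apart was knockout replicate 3, at 1922.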

How the results depend on the processing

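Each named gene was fitted under 17 alternatives, 527 values in all, of which 460 kept their direction and their side of the threshold, 59 lost the call and 8 changed sign; the causes were not tested. Those that changed sign were uncalled genes: Fgf7 under quantile normalisation (-0.13), without control replicate 2 (-0.080) and without knockout replicate 2 (-0.046) or 4 (-0.026), Fgf10 without knockout replicate 1 (0.20), and Fgfr4 under the marker-free scaling (0.11), without control replicate 4 (0.070) and without knockout replicate 4 (0.095). Over all fits without 1 library these genes ranged from -0.080 to 0.26 (Fgf7), -0.64 to 0.20 (Fgf10) and -0.16 to 0.095 (Fgfr4). Leaving out 1 library gave 1751 genes called (without knockout replicate 4) to 3841; leaving out control replicate 2 or 4 gave 1887 and 2194. The count of FGF ligands and receptors called higher was then 2 to 3 and called lower 1, the pathway genes called higher 9 to 18 (9 without control replicate 2 or knockout replicate 4) and lower 6 to 10. Under the marker-free scaling no member was called lower (0 against 1), and 24 pathway genes were called higher and 4 lower, against 15 and 11, with 77.7% of all calls higher against 50.04%. Quantile normalisation gave 5 pathway genes lower. No pairing by replicate number was seen, since same-numbered deviations correlated at -0.23 to 0.21 and 1 of 4 controls correlated best with its own number. With 4 pairs this check cannot exclude a pairing. With the replicate block, which pairs by number, 2018 genes were called, with 0 members and 7 pathway genes lower. Of the named genes Fgf1 (limma adjusted p = 0.0527), Fgfr1 (0.0581), Fgf9 (0.0502), Loxl2 (0.0513), Ndst1 (0.0943) and Ndst2 (0.0619) then lost their calls. Under that pairing the exact test of the ratios cannot go below 0.125. The difference between the groups in the log2 ratio of Fgf7 to Fgf10 ranged from -0.13 (without knockout replicate 1) to 0.90 without 1 library. The differences of the other 6 ratios kept their sign. The depth, 2 to 15 reads of Fgf10 and 10 to 52 of Fgf18 per library, limits what could be seen for these genes. The alternatives for the pathway lists were chosen after seeing the data.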

Other observations

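Cell types of the joint not described above were measured by the same marker lists. Pax7 marks the muscle stem cells known to express Fgfr4. It was listed with Myf5, Myod1, Cdh15 and Chrna1 as satellite cell markers, though Chrna1 does not mark stem cells alone. These 5 had no called gene and a median log2 difference of -0.45, with sums of 1014 to 1300 normalised reads in the controls and 666 to 1040 in the libraries labelled knockout. For Myod1 alone the groups did not overlap, 330 to 498 and 250 to 321 (limma adjusted p = 0.0534). Of the 5 synovial lining markers 2 rose, with sums of 14204 to 34245 and 27015 to 48447. None of the endothelial, adipocyte, neutrophil or erythroid markers was called by limma, with list medians of -0.14, -0.12, -0.64 and -1.95, and of the 5 Schwann cell markers 1 rose.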
